A study of Mus musculus with 2 samples.

Results

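Genes of the endoplasmic reticulum (ER) stress response and of its ATF4 arm were examined in mouse liver with and without Tmprss6. The members are 10 genes, taken by name, and every array probe set that the platform annotation maps to one of those symbols alone. They comprise 22 probe sets of the 45101 on the array and 10 of 18193 named genes. The 5 unfolded-protein genes, Hspa5, Dnajb9, Pdia4, Herpud1 and Xbp1, had 12 probe sets, and the 5 genes of the ATF4 arm, Atf4, Ddit3, Trib3, Asns and Chac1, had 10. Liver RNA came from 1 Tmprss6-deficient (Tmprss6-/-) male and 1 control male, hybridised to 1 Affymetrix Mouse 430 2.0 array each. The knockout was made by gene targeting. Both animals were 3 months old, of mixed 129Sv/C57BL6 background, and fasted overnight, and the labels name the second animal only as control, with no genotype or litter. Tmprss6 encodes matriptase-2, a hepatocyte membrane protease that restrains hepcidin production.

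Secreted and membrane proteins fold in the ER, and the hepatocyte, which makes most plasma proteins, has a large one. When unfolded proteins accumulate, the sensors ATF6 and IRE1 raise transcription of chaperones and degradation factors, the second by splicing Xbp1 mRNA into the form that encodes an active transcription factor. The third sensor, PERK, phosphorylates the initiation factor eIF2 alpha, as does GCN2 when amino acids run short, and this favours translation of ATF4, which activates genes of amino acid supply and cell stress. ATF4 is therefore controlled to a large part at translation, which an mRNA array does not read, and the probe set signals of Xbp1 were not resolved by splice form here.

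The members differ in the promoter letters through which these factors are known to act, and 4 promoters are shown because they carry the known element of each arm. The ER stress element, which is CCAAT and CCACG with 9 bases of any kind between them, is bound by ATF6 with the factor NF-Y, and ERSE-II, ATTGG and CCACG with 1 base between them, is a relative of it. The C/EBP-ATF response element, searched as TGATGNAA, is bound by ATF4 with a C/EBP partner. Both strands were searched in 300 base windows, from 250 bases before the RefSeq start to 50 after it, and all 10 members had a window. The ER stress element was found in 0.119% of all 32851 windows, ERSE-II in 0.0365% and the C/EBP-ATF element in 3.97%. Among members, the ER stress element was in Hspa5 alone and ERSE-II in Herpud1 alone, while the C/EBP-ATF letters were in Asns, Chac1, Trib3 and Herpud1. The 8 base element TGACGTGG of ATF6 and XBP1, which is in 0.676% of windows, was in none of the 10. The core CCACG, which both ER stress elements contain, is in 32.8% of windows and was in 7 of the 10 members. Dnajb9, Pdia4, Xbp1, Atf4 and Ddit3 held none of the 3 longer elements in this window, which says nothing about elements elsewhere. The bases just upstream of the start are given below from RefSeq, build GRCm38.p6, 5′ to 3′ on the gene's strand, with the matched element in capitals.
Hspa5 (chr2:34771940-34772089, plus strand): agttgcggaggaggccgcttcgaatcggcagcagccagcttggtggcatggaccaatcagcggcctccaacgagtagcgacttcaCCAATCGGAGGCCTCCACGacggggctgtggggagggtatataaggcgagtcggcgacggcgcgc
Herpud1 (chr8:94386229-94386428, plus strand): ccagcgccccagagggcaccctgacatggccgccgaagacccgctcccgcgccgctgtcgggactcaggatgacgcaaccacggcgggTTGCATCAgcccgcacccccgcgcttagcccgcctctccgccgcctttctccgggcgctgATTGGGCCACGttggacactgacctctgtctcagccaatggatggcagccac
Asns (chr6:7693210-7693359, minus strand): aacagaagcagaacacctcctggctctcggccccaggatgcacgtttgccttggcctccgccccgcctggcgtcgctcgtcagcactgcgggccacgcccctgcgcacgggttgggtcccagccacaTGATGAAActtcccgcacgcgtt
Chac1 (chr2:119351032-119351241, plus strand): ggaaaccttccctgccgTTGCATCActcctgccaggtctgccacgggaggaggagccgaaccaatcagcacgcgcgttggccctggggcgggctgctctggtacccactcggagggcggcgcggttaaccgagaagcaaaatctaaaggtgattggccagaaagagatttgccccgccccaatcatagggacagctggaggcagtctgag
The capitals mark an ER stress element 65 to 47 bases before the start in Hspa5. In Herpud1 they mark first a C/EBP-ATF element on the opposite strand and then ERSE-II, and in Asns and Chac1 a C/EBP-ATF element. In Chac1 the element lies on the opposite strand and reads TTGCATCA, the same letters as in Herpud1. A match is a run of letters and not a measured binding site.

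The values are MAS5 signals, a linear brightness summary of 1 probe set on 1 array. A signal floor of 17.8, the median of every non-control probe set on the 2 arrays pooled, stands in for detection. A single animal of each genotype gives no replicate error, so no p-value was computed and every difference is one between 2 livers. The number of arrays thus sets the limit on precision. How far the log2 ratios of probe sets for 1 gene scatter is the sole error available, and it omits variation from animal to animal. The SD of this spread was 0.49 for mean signals below 60, 0.34 between 60 and 250, 0.21 between 250 and 1000 and 0.16 for brighter sets. The targeted gene had a signal of 88.1 in Tmprss6-deficient liver and 1868 in control liver on its 1 probe set. Where that set lies relative to the deleted part was not determined here, and its signal in Tmprss6-deficient liver was above the floor. Markers of hepatocytes were bright on both arrays, and all 8 named of 10 lay within 1.5-fold. Of the 22 member probe sets, 19 were above the floor on both arrays, 1 on the control array alone and 2 on neither.

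**Figure D1:**
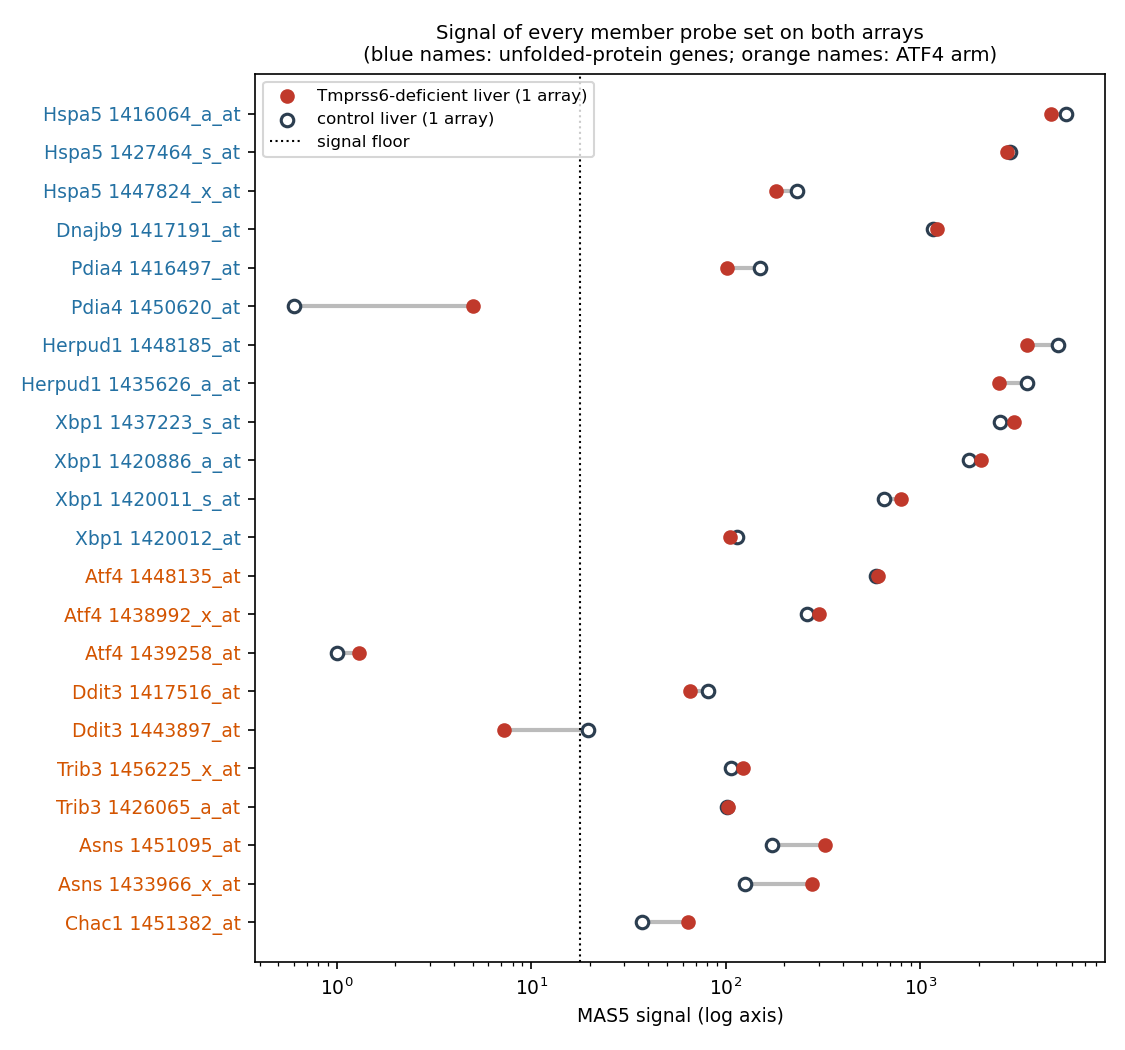
Signal of each of the 22 member probe sets (MAS5 signal, log axis) in Tmprss6-deficient liver (filled red) and control liver (open), 1 array each, with the floor of 17.8 as a dotted line. Both Asns sets and the Chac1 set lie to the right in Tmprss6-deficient liver, both Herpud1 sets lie to the left, and 1 set each of Pdia4 and Atf4 lies below the floor on both arrays.

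The unfolded-protein genes all lay within 1.5-fold, with Xbp1 and Dnajb9 on the higher and Hspa5, Pdia4 and Herpud1 on the lower side without Tmprss6. Within the ATF4 arm Asns and Chac1 were higher, Atf4 and Trib3 differed little, and Ddit3 was on the lower side. By the brightest probe set of each gene, the median log2 ratio (Tmprss6-deficient over control) was -0.25 for the 5 unfolded-protein genes, with 2 higher and 3 lower. It was 0.21 for the 5 genes of the ATF4 arm, with 4 higher and 1 lower. Over all 10243 genes above the floor on both arrays the median was -0.0098. At 1.5-fold or more, 0 unfolded-protein genes passed in either direction, and 2 ATF4-arm genes were higher and 0 lower. Of all genes, 7.51% were higher and 8.42% lower by that size. Counted by probe set, 3 of the 19 member sets above the floor were higher by 1.5-fold or more and 0 lower, against 10% (1992 sets) higher and 8.07% (1605 sets) lower among all 19894 such sets. All 3 were sets of Asns or Chac1. With so few members these counts lie near the background and are no result about the members as a whole. In bulk liver, fewer cells of a type and less RNA per cell cannot be told apart.

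**Figure D2:**
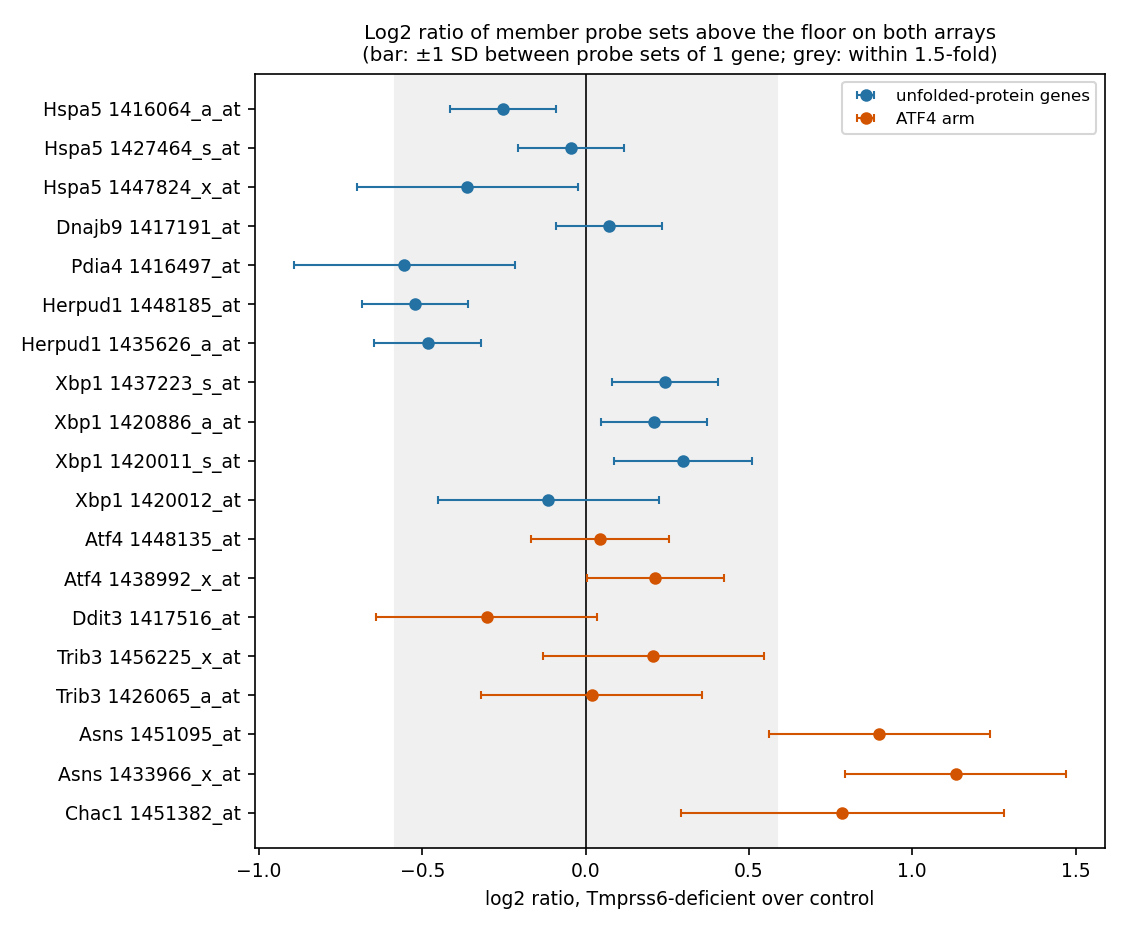
Log2 ratio, Tmprss6-deficient over control, of the 19 member sets measured on both arrays, with bars of 1 SD of the scatter among sets for 1 gene at that signal. The 3 points of Asns and Chac1 lie beyond the grey band of 1.5-fold, and the 11 points of unfolded-protein genes lie within it.

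Hspa5 encodes BiP (GRP78), the main ER chaperone and the classic marker of the unfolded protein response. Its signal on the brightest set, 1416064_a_at, was 4722 in Tmprss6-deficient liver and 5626 in control liver. It was 2800.3 and 2889 on 1427464_s_at, and 181 and 232.5 on the dim 1447824_x_at, in the same order. All 3 sets were lower without Tmprss6, with log2 ratios of -0.25, -0.05 and -0.36. The largest of these, -0.36, is on the dimmest set, where the spread is 0.34, and the 2 bright sets lie 1.55 and 0.28 times their spread of 0.16 below equality. The second set was higher in 2 of 7 alternative settings, at up to 0.03. Hspa5, whose promoter carries the ER stress element printed above, was thus at most 1.29-fold lower on any set with the main settings. With scaling to the median the dimmest set was at -0.43.

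Pdia4 encodes the ER disulfide isomerase ERp72. Its measured set, 1416497_at, read 102 in Tmprss6-deficient liver and 149 in control liver, 1.47-fold lower and a log2 ratio of -0.56 against a spread of 0.34. Another set, 1450620_at, read 5.0 in Tmprss6-deficient liver and 0.6 in control liver, below the floor on both arrays, and so has no ratio. Pdia4 therefore rests on 1 dim set, just inside 1.5-fold, and it passed 1.5-fold with scaling to the median (-0.62) and after loess (-0.59).

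Herpud1 encodes a membrane protein of the complex that returns misfolded proteins to the cytosol for degradation. On 1448185_at its signal was 3555 in Tmprss6-deficient liver and 5105.5 in control liver, and on 1435626_a_at it was 2535 in Tmprss6-deficient liver and 3546 in control liver. Both sets were lower without Tmprss6 and close to each other, with log2 ratios of -0.52 and -0.48. That is 3.21 and 2.98 times the spread at this signal, the farthest of any unfolded-protein gene. Of all probe sets with a mean signal above 1000, 4.89% were lower by 1.5-fold or more, a size that Herpud1 did not reach. With scaling to the median, which shifts all sets downwards, 1448185_at reached it (-0.59). The share of all sets was not computed for that setting. Over the alternative settings 1448185_at lay between -0.59 and -0.45 and 1435626_a_at between -0.55 and -0.42, both nearest to equality after loess. Its promoter, printed above, carries letters of both arms.

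Dnajb9 encodes ERdj4, an ER co-chaperone of BiP and a target of spliced XBP1. On its 1 set, 1417191_at, it read 1222.5 in Tmprss6-deficient liver and 1163 in control liver. The log2 ratio of 0.07 is less than the spread of 0.16, so this target of XBP1 was not separable between the livers.

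Xbp1 encodes the transcription factor that IRE1 activates by splicing. Its signal was 3047 in Tmprss6-deficient liver and 2575 in control liver on 1437223_s_at. It was 2055 and 1778 on 1420886_a_at, and 800.3 and 651 on 1420011_s_at, in the same order. These 3 sets were slightly higher without Tmprss6, by 0.24, 0.21 and 0.30 on the log2 scale. The dimmest set, 1420012_at, read 105 in Tmprss6-deficient liver and 114 in control liver and went the other way, at -0.11. The 3 brighter sets each lay 1.29 to 1.49 times their spread above equality. Xbp1 thus differed in sign from Hspa5, Pdia4 and Herpud1 on its bright sets, at no more than 1.23-fold with the main settings.

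In the ATF4 arm, the factor itself was close between the livers. Atf4 encodes the transcription factor that eIF2 alpha phosphorylation lets through translation. It read 608 in Tmprss6-deficient liver and 589.5 in control liver on 1448135_at, and 302.5 in Tmprss6-deficient liver and 261 in control liver on 1438992_x_at. The log2 ratios were 0.04 and 0.21 against a spread of 0.21, and the brighter set changed sign in 1 of 8 alternative settings. A set at 1.3 in Tmprss6-deficient liver and 1.0 in control liver, 1439258_at, was below the floor on both arrays.

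Ddit3 encodes CHOP, a transcription factor linked to cell death under prolonged stress. It was dim, with 65.6 in Tmprss6-deficient liver and 80.9 in control liver on 1417516_at, a log2 ratio of -0.30 against a spread of 0.34. On 1443897_at it read 7.2 in Tmprss6-deficient liver and 19.5 in control liver. That set was above the floor in control liver alone and gives only a bound, at least 1.10-fold lower without Tmprss6. Neither set placed Ddit3 higher in the Tmprss6-deficient liver.

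Trib3 encodes a pseudokinase that ATF4 and CHOP induce and that dampens their activity and insulin signalling to AKT. It read 122 in Tmprss6-deficient liver and 106 in control liver on 1456225_x_at, and 103 in Tmprss6-deficient liver and 101 in control liver on 1426065_a_at. The log2 ratios of 0.21 and 0.02 are both under the spread of 0.34. The second set changed sign in 3 of 7 alternative settings.

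Asns encodes asparagine synthetase, whose promoter element printed above is the best studied site of the amino acid response. Its signal was 324 in Tmprss6-deficient liver and 174 in control liver on 1451095_at. On 1433966_x_at it was 276.5 in Tmprss6-deficient liver and 126 in control liver. Both sets were higher without Tmprss6, by 1.87-fold and 2.19-fold, or 0.90 and 1.13 on the log2 scale. These are 2.66 and 3.35 times the spread of 0.34. Among all probe sets with a mean signal between 60 and 250, 9.43% differed upwards and 7.76% downwards by at least 1.5-fold. Among all sets above the floor, 2.53% were 2-fold higher or more and 2.09% were 2-fold lower or more. Of the 19 member sets, 0 were that much lower and 1, the second Asns set, was that much higher. Over the alternative settings the first set stayed between 0.83 and 0.90 and the second between 1.03 and 1.13.

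Chac1 encodes a glutathione-degrading cyclotransferase that ATF4 induces. Its 1 set, 1451382_at, read 63.8 in Tmprss6-deficient liver and 37.0 in control liver, 1.72-fold higher and a log2 ratio of 0.79. At this dim signal the spread is 0.49, and 14.8% of all measured probe sets with a mean signal under 60 were higher by 1.5-fold or more. With the floor added to each signal as a pseudocount the log2 ratio was 0.57, just under 1.5-fold, and a floor raised to the 70th percentile lay above the control signal, so no ratio was had. The 2 members past 1.5-fold are thus unequal in support, Asns on both of its sets and Chac1 on 1 dim set.

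**Figure D3:**
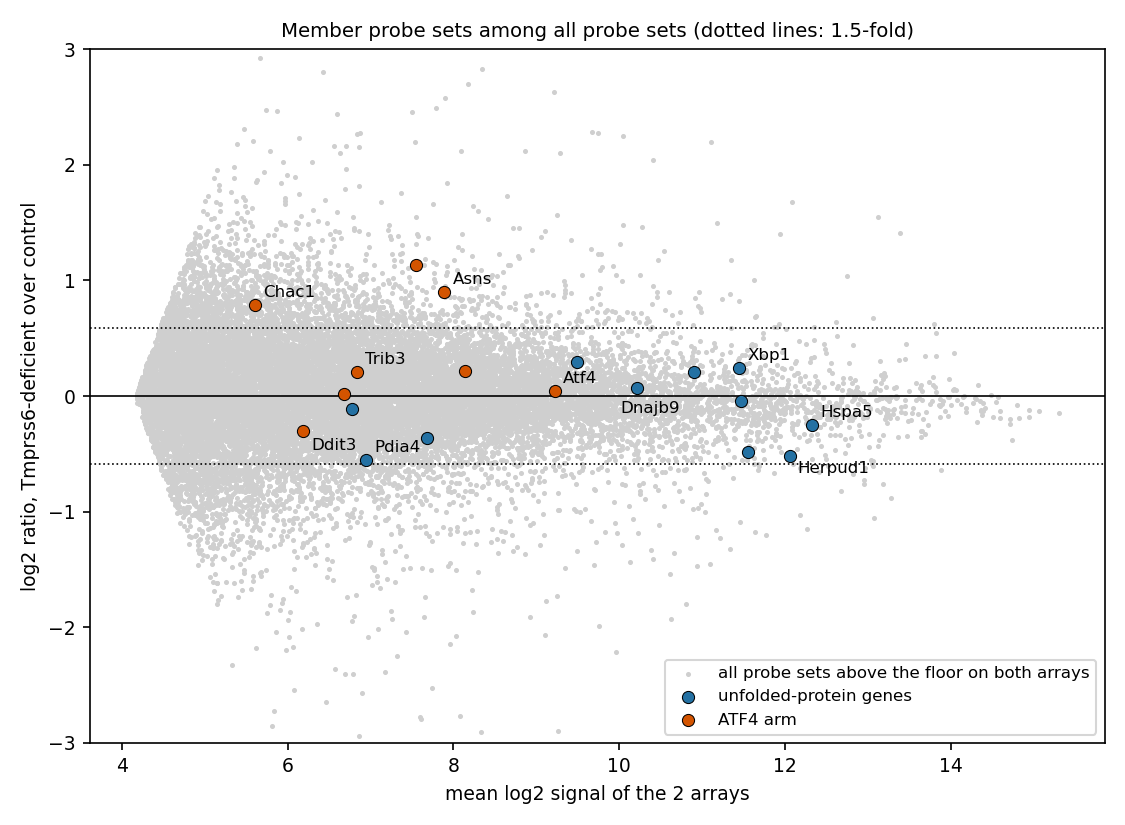
Log2 ratio against mean log2 signal for all 19894 probe sets measured on both arrays (grey) and the 19 member sets (coloured, the brightest set of each gene named), with dotted lines at 1.5-fold. The grey cloud narrows with signal, Chac1 lies at its dim and wide end, Herpud1 and Hspa5 at its bright and narrow end, and 17 sets lie beyond the axis limit of 3.

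Set against each other, the 2 arms overlapped. The ATF4-arm median was 0.46 above the unfolded-protein median on the log2 scale. Gene ratios ran between -0.30 and 0.90 in the ATF4 arm and between -0.56 and 0.24 among unfolded-protein genes, and the ATF4-arm gene had the higher ratio in 19 of 25 pairs. Without Asns and Chac1, a choice made after their values were seen, the ATF4-arm median was 0.04 and the difference 0.30. Over all measured sets in place of the brightest of each gene, the medians were 0.21 for 8 ATF4-arm sets and -0.11 for 11 unfolded-protein sets. Across 9 alternative settings the difference of medians lay between 0.35 and 0.73, and neither median changed sign. Scaling to the median and leaving values unscaled move all sets alike and so cannot change that difference. The arms also differ in brightness. The brightest sets of Hspa5, Dnajb9, Herpud1 and Xbp1 had mean signals above 1000, and all ATF4-arm sets lay below that. After loess of the ratio on mean signal the difference was 0.35. How much of the difference goes with signal was not tested. These are descriptions of 2 arrays, with no test of the difference.

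Other genes of the same pathways did not repeat the pattern of Asns, Chac1 and Herpud1 throughout. Of 19 further ER chaperones and folding enzymes, all 19 lay within 1.5-fold on their brightest sets. Among them 9 were higher and 10 lower, around a median log2 ratio of -0.0011, which changed sign in 4 of 9 alternative settings. The most distant were Dnajb11 (-0.35), a BiP co-chaperone, Fkbp2 (-0.32), a prolyl isomerase, and the disulfide isomerase genes Pdia6 (-0.25) and Txndc5 (0.23). Dnajb11, the farthest of them, was 1.27-fold lower, and Pdia6, like Pdia4, was on the lower side.

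The stress sensors and their processing enzymes differed by less than 1.5-fold in all 12 genes measured, around a median of -0.08. Atf6, the transcription factor sensor, read 286 in Tmprss6-deficient liver and 194 in control liver, a log2 ratio of 0.56, with 2 of 3 sets higher and 1 lower. Eif2ak3, which encodes PERK, read 117 in Tmprss6-deficient liver and 86.0 in control liver (0.45). The ratios of Eif2ak4, which encodes the amino acid sensor GCN2, and of Eif2ak2, which encodes PKR, were -0.39 and -0.34 at dim signals. No sensor thus reached 1.5-fold on its brightest set.

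Genes of ER-associated degradation and protein translocation likewise stayed under 1.5-fold on their brightest sets, all 16 that were measured, around a median of -0.07. Sec61a1, at -0.06 on its brightest set, had dimmer sets at 1.07 and 0.79, with 3 of its 6 measured sets higher and 3 lower. The mannosidase-like genes Edem3 (0.51), Edem1 (0.48) and Edem2 (0.34), which mark misfolded glycoproteins for removal, lay on the higher side, on every measured set. Derl3, a channel component, had a ratio of -0.47 at a dim signal. Herpud1, which acts in the same pathway, was on the other side from the Edem genes.

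**Figure D4:**
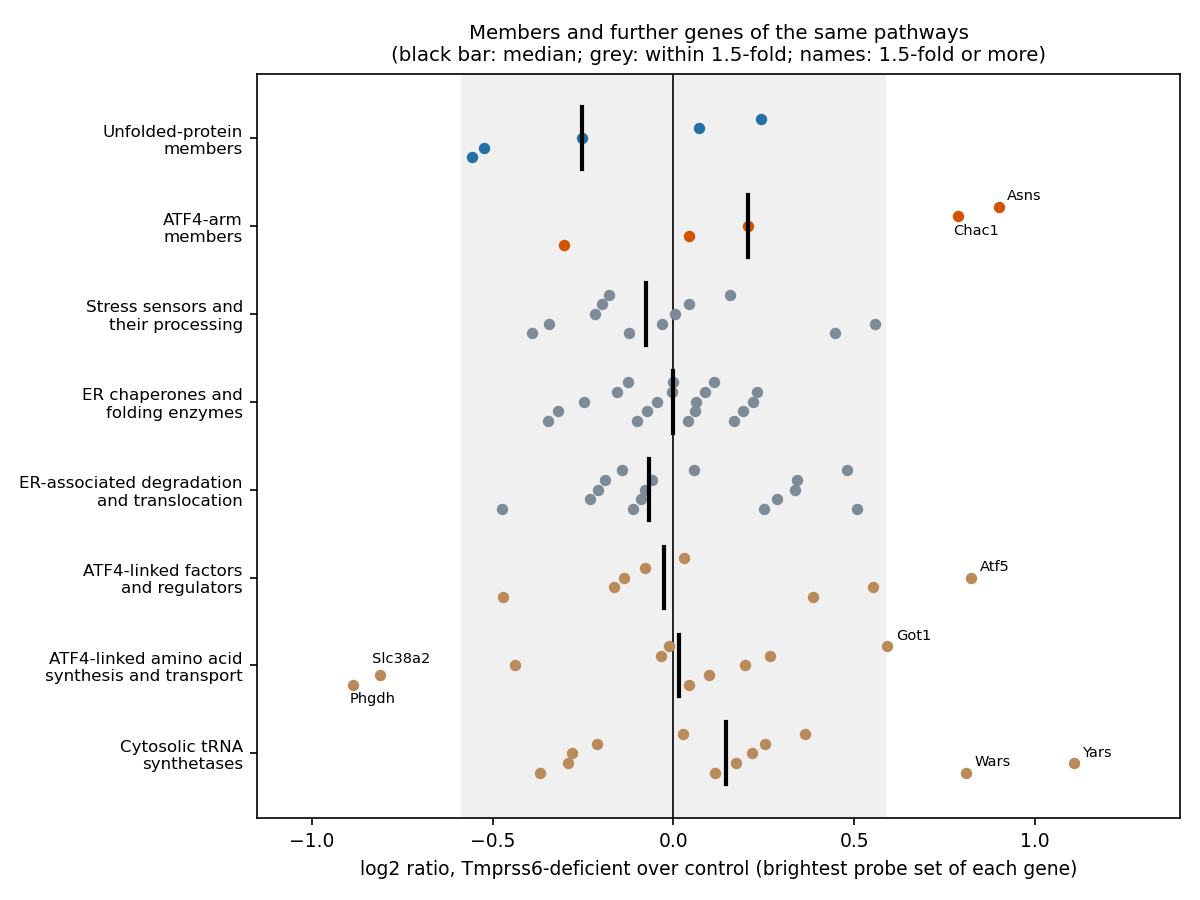
Log2 ratio, Tmprss6-deficient over control, of the members (blue and orange) and of further genes of their pathways (grey and tan), 1 point a gene by its brightest measured set, with the median as a black bar. The 3 ER lists in grey lie wholly within 1.5-fold, and the named points beyond it are all in lists of the ATF4 arm, in both directions.

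Lists of genes linked to ATF4 held single genes past 1.5-fold in both directions, a size that 7.51% of all genes reached upwards and 8.42% downwards. These counts are small, and their difference from the ER lists was not tested. Of 8 measured transcription factors and stress regulators, 1 was higher and 0 lower by that size, around a median of -0.02. Atf5, an ATF4-induced factor that is abundant in liver, read 3727 in Tmprss6-deficient liver and 2105 in control liver and was 1.77-fold higher on its 1 set. Ddit4, an mTORC1 inhibitor, and Cebpg, a C/EBP partner of ATF4, had log2 ratios of 0.55 and 0.39, and the lipoprotein receptor gene Vldlr one of -0.47. Fgf21, a hepatokine that fasting and ATF4 induce, was at 249.5 in Tmprss6-deficient liver and 279.5 in control liver. Fgf21 lies outside the rule for named genes and was chosen after its values were seen.

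For amino acid synthesis and transport, 10 of 16 named genes could be measured on both arrays. The median was 0.02 and changed sign in 2 of 9 alternative settings, with 1 gene at least 1.5-fold higher and 2 at least that much lower. Got1, cytosolic aspartate aminotransferase, which makes the aspartate that Asns uses, was 1.51-fold higher, at 3208 in Tmprss6-deficient liver and 2128 in control liver, and did not reach 1.5-fold with scaling to the median (log2 ratio 0.53). Slc38a2, the amino acid carrier SNAT2, was lower on both of its sets, 1.75-fold on the brighter at 1072 in Tmprss6-deficient liver and 1879.5 in control liver. Phgdh, the first enzyme of serine synthesis, was 1.85-fold lower on a dim set at 38.4 in Tmprss6-deficient liver and 70.9 in control liver, with its other set higher. Psph, the last enzyme of that pathway, had a log2 ratio of -0.44. Slc38a2, a carrier that the amino acid response also induces, thus differed in the other direction from Asns.

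Cytosolic aminoacyl-tRNA synthetases, which charge tRNAs and are ATF4 targets in part, ran higher in 2 of 12 genes and lower in 0 at the 1.5-fold limit, around a median of 0.14, against 7.51% higher and 8.42% lower of all genes. Yars, for tyrosine, read 256 in Tmprss6-deficient liver and 119 in control liver, 2.16-fold higher on its 1 set. Wars, for tryptophan, was 1.75-fold higher on a dim set at 67.8 in Tmprss6-deficient liver and 38.7 in control liver, with 2 of its 4 sets higher and 2 lower. It was at 0.05 on the log2 scale with the mean of all sets and at -0.57 with plain sets only. Those settings cannot move Yars, whose 1 measured set is a plain one. Lars and Tars had log2 ratios of -0.37 and 0.36. The median changed sign in 2 of 9 alternative settings.

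Markers of other liver cells were read on the same arrays. Of 9 Kupffer cell and macrophage markers, 7 had a ratio below 0 and 2 above it, with a median log2 ratio of -0.53. By 1.5-fold or more, 3 were lower and 1, Marco, was higher, against 8.42% and 7.51% of all genes, and the summed signal was 2715 in Tmprss6-deficient liver and 3845 in control liver. Plasma cell and B cell markers, of cells with much ER, summed to 1301 in Tmprss6-deficient liver and 1541 in control liver, of which Sdc1, which hepatocytes also express, gave 1135 and 1422 in the same order. Of 5 such markers measured on both arrays, 3 were higher and 2 lower. Sdc1 was lower on its brightest set alone, the set in the sum, while 3 of its 4 measured sets were higher. The log2 ratio of the plasma cell gene Jchain was -0.01. Mzb1 was 1.65-fold higher, at a dim 38.0 in Tmprss6-deficient liver and 23.1 in control liver, the only 1 past 1.5-fold. Sums are carried by the brightest marker and can hide differences of single genes. Endothelial markers summed to 1277 in Tmprss6-deficient liver and 1328 in control liver, yet of 8 genes Lyve1 was 4.71-fold and Oit3 1.57-fold higher, while Clec4g was 1.98-fold and Kdr 1.55-fold lower. Stellate cell and fibroblast markers summed to 2611 in Tmprss6-deficient liver and 2608 in control liver, yet Acta2, which smooth muscle also expresses, was 5.76-fold lower, at 89.2 in Tmprss6-deficient liver and 514 in control liver. These single markers were chosen after their values were seen. Neutrophil markers summed to 163.5 in Tmprss6-deficient liver and 175 in control liver, with 4 of 6 named genes above the floor on both arrays. Of these 4, all dim, Csf3r was 1.83-fold and Ngp 1.58-fold higher, while S100a8 was 1.33-fold and S100a9 1.21-fold lower. Erythroid markers summed to 294 in Tmprss6-deficient liver and 707 in control liver, with 2 of 4 named genes above the floor on both arrays. Most of that sum was Alas2, at 232 and 593 in the same order, and the other measured gene, Epor, was 1.07-fold higher. The other 2 named genes, Klf1 and Hba-a1, were above the floor in control liver alone, at least 3.23-fold and 1.16-fold lower without Tmprss6. Of 5 named cholangiocyte markers and 4 named T cell markers, 0 were above the floor on both arrays, so neither list gives a median ratio. Of the cholangiocyte markers, 4 were above it in control liver alone, from Epcam, at least 1.08-fold lower, to Krt19, at least 2.76-fold lower. All were dim, and that list summed to 42.4 in Tmprss6-deficient liver and 129.6 in control liver. Among T cell markers 1, Cd8a, was above it in Tmprss6-deficient liver alone, at least 1.56-fold higher. The part of these cells in the member values was not tested.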

How the data were processed

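Liver RNA was purified on columns and labelled with biotin by in vitro transcription, per the labels' protocols. The deposited table holds the authors' intensity values, a signal for each probe set on each array. MAS5 is named in the submitters' processing notes, without a version or settings. The trimmed mean, without the lowest and highest 2%, was 100.001 on both arrays, so the arrays look scaled alike. Detection calls were not used here.

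Signals were scaled to a common trimmed mean, raised to the floor of 17.8 where lower, and log2 was taken (Python 3.11.15). The brightest probe set, by mean log2 signal, stands for a gene. A set measured on 1 array gives a bound, and a set under the floor on both gives no ratio. The spread was taken from genes with at least 2 measured sets: the log2 ratios of the brightest pair, where both fall in the same signal range, were subtracted, and the SD of that difference was divided by the square root of 2. Of 45101 probe sets, 34958 had 1 symbol, 932 had several and 9211 were not listed. Sets ending _s_at or _x_at can match other transcripts. Levels were not compared between probe sets.

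No test was possible with 1 array per group, and groups follow the sample titles. The ratio calculation was tested on simulated arrays. Named genes are the members, Tmprss6 and, in each further list, the 4 largest ratios and any at 1.5-fold or more. Members and lists were chosen with earlier results of these data known. The alternatives concerned the scaling, the floor, a pseudocount, the choice of probe set and the fold.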

Additional observations from a re-analysis of the deposited data

How the results depend on the processing

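The medians of both arms and their difference kept their sign under each of 9 alternatives. These were quantile normalization, loess, median scaling, values left unscaled, a lower floor (30th percentile), a higher one (70th), a pseudocount equal to the floor, gene means over all sets, and plain sets only. The difference cannot move with median scaling or without scaling, which shift all sets alike, so those settings say nothing about it. Nor can it or either median move with the lower floor, since the brightest member sets all lay above the main floor. Unscaled values leave both medians in effect as they are, because the trimmed means were already equal. With plain probe sets only, which leave 4 genes in each arm, the ATF4-arm median was 0.42 and the difference 0.73. Hspa5 and Trib3 then drop out, and Xbp1 is read on its dimmest set (-0.11) in place of its brightest (0.24). The member sets lower by 1.5-fold or more, 0 as reported, numbered 2 with scaling to the median (Pdia4 and Herpud1), 1 with loess (Pdia4) and 1 with the lower floor (the dim Ddit3 set, which then counts as measured). At 2-fold in place of 1.5-fold, 1 set was higher, of Asns. The alternatives for further pathway genes were chosen after seeing the data. Wars reversed with plain sets only (-0.57), and the synthetase median was then -0.21. Got1 fell short of 1.5-fold with median scaling (0.53). With the mean of all sets, Phgdh was at -0.19 and Wars at 0.05. The median of all probe sets stayed between -0.04 and 0.03. No paired analysis was possible because each group holds 1 animal. No replicate could be left out for the same reason. Dim sets limit Chac1, Ddit3, Pdia4 and Trib3. Both Asns sets lie in the same signal range, 60 to 250, as the measured sets of Pdia4 and Trib3.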
